A study of Mus musculus with 15 samples.

Results

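Olfm4, Dmbt1, Nos2 and Hp are 4 genes of mucosal defence among the 28269 genes listed in the tables of a study of the mouse uterine epithelium. They were picked by name because, in luminal libraries already compared, their read counts were high in 1 mutant group and at or near 0 in the wild type. Those luminal differences are therefore given below as a description, without a test. The wild-type and U-OEx tables list all 4 genes, and the E-OEX tables list Hp alone. Olfm4, Dmbt1 and Nos2 were not analysed in E-OEX.

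The samples were epithelium labelled day 4, either luminal (LE), the sheet facing the uterine cavity, or glandular (GE), from the glands beneath it. Wild-type mice gave the groups WT LE and WT GE. Mice labelled as overexpressing Notch1, a receptor of cell-to-cell signalling, gave E-OEX LE, E-OEX GE and U-OEx LE. Each of the 5 groups had 3 libraries of RNA sequencing made from total RNA. The labels do not spell out E-OEX or U-OEx, and the allele, the promoter behind it, the pooling of animals and the event from which days were counted are not given in the sources used here. The labels do not say that replicates were separate animals, so p-values measure the spread between libraries, which may be partly technical.

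Mucosal epithelia protect their surface by secreting proteins that bind or starve microbes and by enzymes that make reactive molecules. Olfm4 encodes olfactomedin 4, a secreted glycoprotein of intestinal crypts and neutrophil granules, known as a target of both Notch and NF-kB signalling in gut epithelium. Dmbt1 encodes a large secreted scavenger receptor cysteine-rich protein that binds bacteria and mucins. Nos2 encodes inducible nitric oxide synthase, which makes nitric oxide from arginine. Hp encodes haptoglobin, an acute-phase protein that captures free haemoglobin and so withholds its iron.

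The genes lie on 4 chromosomes of the GRCm38 build, by the GENCODE M21 annotation. Olfm4 (ENSMUSG00000022026) spans 79984081 to 80023139 on the plus strand of chromosome 14, with 8 merged exons, and overlaps the lincRNA Gm6999 on the same strand. Dmbt1 (ENSMUSG00000047517) spans 131032053 to 131121630 on the plus strand of chromosome 7, with 51 merged exons, and overlaps Fgfr2 on the opposite strand. Nos2 (ENSMUSG00000020826) spans 78920787 to 78960254 on the plus strand of chromosome 11, with 29 merged exons. Hp (ENSMUSG00000031722) spans 109575128 to 109579172 on the minus strand of chromosome 8, with 6 merged exons. Whether reads were counted by strand is not given in the sources used here, so reads of overlapping genes may have been shared.

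The RefSeq promoter table (GRCm38.p6) held a window for 1 of the 4 genes, Olfm4. It is shown because Olfm4 went from 0 reads to the most abundant of the 4 transcripts. The stretch lies at chr14:80000052-80000260 on the plus strand, and the RefSeq start is at 80000302. Capitals mark a run of overlapping matches to the NF-kB motif, which is GGG, any 5 bases, then CC.
Olfm4: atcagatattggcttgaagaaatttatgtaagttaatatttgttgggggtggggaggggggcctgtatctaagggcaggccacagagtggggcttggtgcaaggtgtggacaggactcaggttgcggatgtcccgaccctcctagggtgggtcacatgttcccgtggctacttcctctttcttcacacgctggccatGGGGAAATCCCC
The 250 bases before the RefSeq start were searched on both strands for 5 motifs. The NF-kB motif matched 3 times within that run, from 53 to 42 bases before the start, and 45.8% of the 32851 windows in the table held this motif. The RBPJ motif TGGGAA, bound by the DNA-binding partner of activated Notch receptors, matched once, on the plus strand, from 12 to 7 bases before the start, and 21.6% of windows held it. It is not in the printed stretch, which was cut at the end of the NF-kB run. A GENCODE transcript of Olfm4 starts 51 bases upstream of the RefSeq start. The RBPJ site and most of the NF-kB run lie inside that transcript. The GENCODE gene start lies 16221 bases upstream of the RefSeq start. The STAT motif TTCNNNGAA, the C/EBP motif TTGCNNAA and the AP-1 motif TGANTCA gave 0 matches, and 7.02%, 9.56% and 6.75% of windows held them. A match describes the letters and is not evidence of binding.

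The deposited value of a gene is its read count divided by 1 factor per library, called the scaled count here. Listed genes held 3818041 to 4797424 reads in a wild-type library, 1980800 to 3494859 in an E-OEX library and 13541644 to 14981505 in a U-OEx library. The wild-type tables list 6414 genes and 4903 are in the E-OEX tables, all but 1 of them at least 2-fold apart between GE and LE, while 27946 genes are in the U-OEx tables without such a selection. Notch1 itself is listed in the U-OEx tables only, at scaled counts of 2913, 3524 and 2789, so the labelled overexpression could not be checked against a control.

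**Figure D1:**
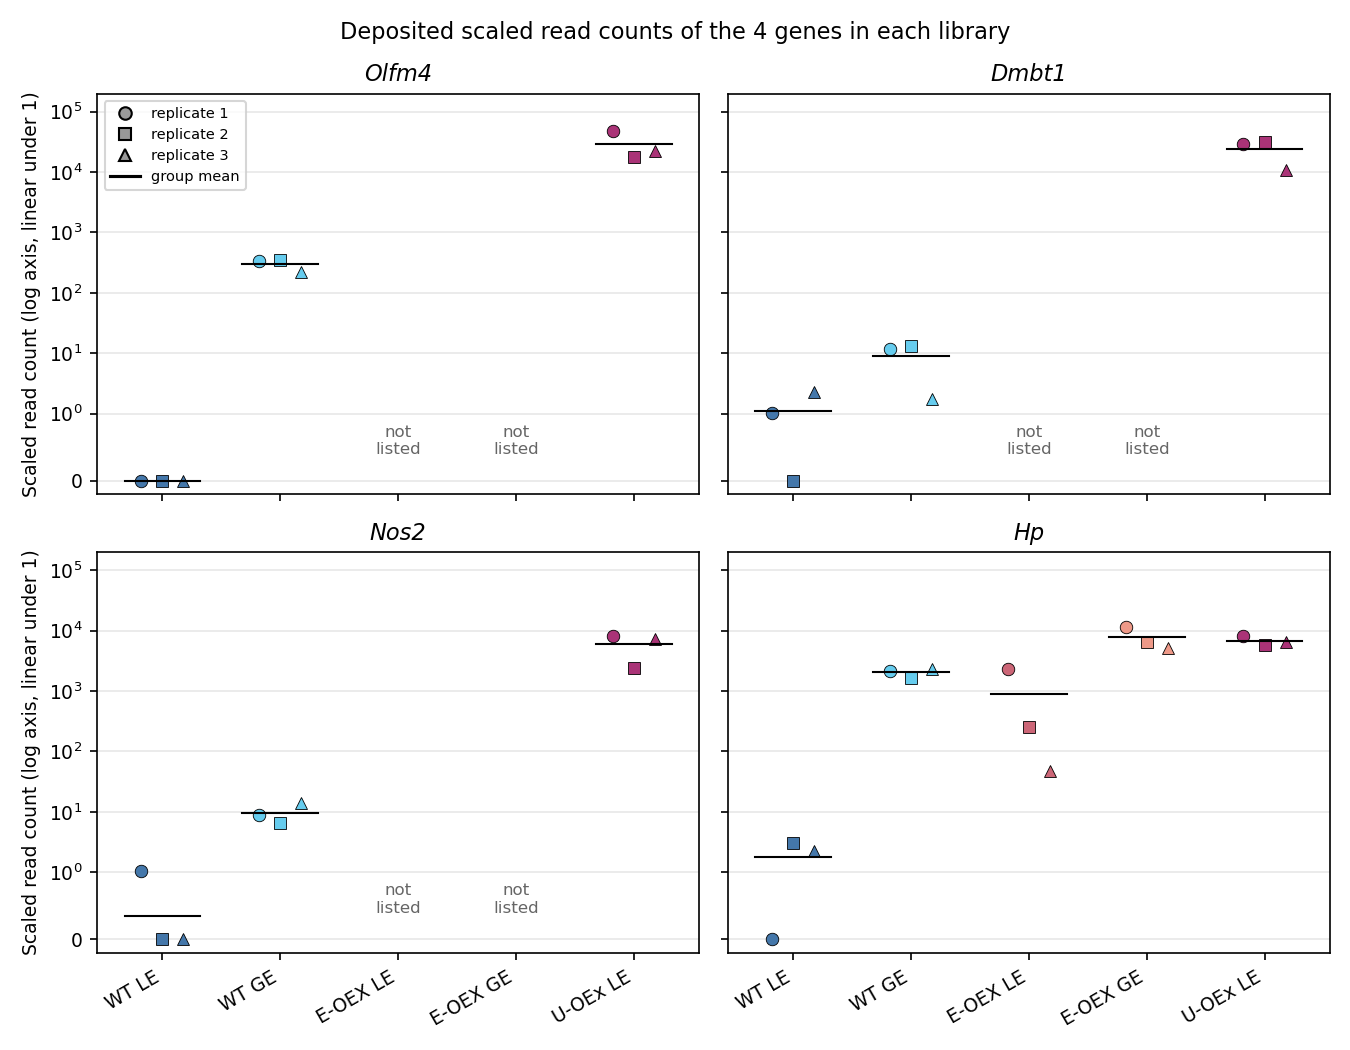
Deposited scaled read counts of Olfm4, Dmbt1, Nos2 and Hp (vertical axis, logarithmic above 1) in each library of the 5 groups (horizontal axis), with symbols for replicates and a line at the group mean. All 4 genes sit between 0 and 3.07 in WT LE and at 2382 or more in U-OEx LE, and Hp spreads from 47.5 to 2356 in E-OEX LE.

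Olfm4, the secreted crypt and neutrophil glycoprotein, was at 0 reads in each of the 3 WT LE libraries. In WT GE its scaled counts were 332, 350 and 225. In U-OEx LE they were 47831, 17806 and 22155, a mean of 29264 ± 16226 (SD, n = 3). The 3 groups did not overlap, and replicate 1 stood above the other U-OEx libraries. After the reads of both tables were put on 1 scale, the U-OEx LE mean of Olfm4 was at least 27283-fold that of WT LE. This takes 3 reads over the 3 WT LE libraries together as an approximate 95% upper limit for a count of 0. It covers counting error only and leaves out the spread of the U-OEx libraries. Against WT GE, where the gene was detected in every library, the ratio of means was 113.

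Dmbt1, the bacteria-binding secreted receptor, gave 3 reads in WT LE in all, with scaled counts of 1.04, 0 and 2.24. In WT GE they were 11.7, 13.3 and 1.73, and the lowest of these lay within the WT LE range. In U-OEx LE they were 29607, 31768 and 10909, a mean of 24095 ± 11470 (SD, n = 3), with replicate 3 the lowest. The ratio of U-OEx LE to WT LE was 21633, with a 95% Poisson interval of 7645 to 108334 on the wild-type reads, which covers counting error only. The ratio to WT GE was 3150 (2221 to 4830).

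Nos2, the inducible nitric oxide synthase, gave 1 read in WT LE, with scaled counts of 1.04, 0 and 0. In WT GE they were 8.76, 6.64 and 13.8. In U-OEx LE they were 8048, 2382 and 7361, a mean of 5930 ± 3092 (SD, n = 3), and here replicate 2 was the lowest. The ratio to WT LE was 15510 with a counting interval of 2978 to 655449, whose width reflects the single wild-type read. The ratio to WT GE was 703 (493 to 1016).

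Hp, the haemoglobin-binding protein, gave 5 reads in WT LE, with scaled counts of 0, 3.07 and 2.24. In WT GE they were 2168, 1633 and 2316, and in U-OEx LE 8322, 5748 and 6486. The U-OEx LE mean of 6852 ± 1326 (SD, n = 3) was the steadiest of the 4 genes across libraries, with a coefficient of variation of 19.3% against 55.4% for Olfm4, 47.6% for Dmbt1 and 52.1% for Nos2. The ratio of U-OEx LE to WT LE was 4002 (1638 to 11774), and the ratio to WT GE was 3.88. The wild-type gland libraries held much Hp, some Olfm4 and 28 and 32 reads of Dmbt1 and Nos2.

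None of the 4 genes had overlapping values between U-OEx LE and WT LE, or between U-OEx LE and WT GE. Over all genes tested, 32.7% were higher without overlap in U-OEx LE than in WT LE and 36.1% higher without overlap than in WT GE. By limma, 56.9% of genes were called between U-OEx LE and WT LE. Since the genes were picked on the luminal difference, nothing is read from these counts. In such bulk samples a change in the number of cells of a type and a change in RNA per cell cannot be told apart.

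Within the wild type, the mean of each of the 4 genes was higher in GE than in LE. These differences are given without a test, since the genes were picked for their near-zero values in WT LE and the tables list genes selected for a difference between GE and LE. Over all 6414 genes, 97% were called by limma, 56.6% higher and 40.5% lower in GE. The mean of Olfm4 was at least 285-fold higher in WT GE, by the same limit of 3 reads. Nos2 was higher by a ratio of 28.2 with a counting interval of 4.95 to 1090, and Hp by a ratio of 1153 (495 to 3557). Dmbt1 had a ratio of 8.16 (2.87 to 40.7), which rests on 28 reads in WT GE and 3 in WT LE. Olfm4, Nos2 and Hp did not overlap between the groups, as for 55.9% of genes that were higher, and Dmbt1 did.

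The gland libraries also carried more RNA of the stroma, the connective tissue around the glands. The summed scaled counts of the 6 stromal markers listed in the wild type ran from 33746 to 99388 in WT GE and from 363 to 7656 in WT LE, and 6 of 6 were higher in WT GE. Of 5 leukocyte markers listed there, 3 were higher and 2 lower in WT GE, and together they summed to 2477 to 4029 in WT GE and 598 to 1259 in WT LE, with the neutrophil marker Ly6g at 0 in WT GE and Retnlg at 0 in WT LE. The part of these cells in the gland values of the 4 genes was not tested.

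Hp could be followed through all 5 groups. On 1 scale for the 15 libraries, built from the genes listed in all 3 sets of tables, the mean rescaled counts (± SD, n = 3) were 2.61 ± 2.40 for WT LE, 1178 ± 1700 for E-OEX LE and 1695 ± 404 for WT GE. They were 4974 ± 2563 for E-OEX GE and 8983 ± 1643 for the U-OEx lumen. WT LE stood apart below all others. E-OEX LE and WT GE overlapped, as did E-OEX GE and U-OEx LE. E-OEX LE and E-OEX GE overlapped too on this scale, with E-OEX LE replicate 1 at 3133 and E-OEX GE replicate 3 at 3034. The order of E-OEX GE and U-OEx LE turned with the scaling, since the deposited scaled counts averaged 7774 for E-OEX GE against 6852 for U-OEx LE.

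E-OEX LE was the least even of these groups for Hp. Its scaled counts were 2356, 254 and 47.5, a 49.6-fold range, with replicate 1 far above the others. Sums of gland and stromal markers were also highest in replicate 1, though single markers differed. The summed scaled counts of gland markers were 1321, 215 and 291, with Foxa2 at 426, 41.8 and 52.9, while Spink1 and Calca were at 0 in all 3 libraries. Stromal markers summed to 2728, 1213 and 498, and the myeloid marker Itgam was at 170, 53.6 and 60.4. The neutrophil marker Ly6g was highest in replicate 2, at 24.6, 43.6 and 17.3. The stromal marker Pdgfra was lowest in replicate 1, at 1.83, 9.08 and 5.40, and the gland marker Ttr was highest in replicate 3. The part of these cells in the Hp values was not tested. Every library exceeded WT LE, and the ratio of means was 431 with a counting interval of 177 to 1269. Of all genes tested, 15.1% were higher in E-OEX LE than in WT LE without overlap. Without E-OEX LE replicate 1 the log2 difference from WT LE fell from 6.92 to 5.52. U-OEx LE exceeded each E-OEX LE library, with a ratio of 7.76 between means, where 20.1% of genes were higher without overlap. That log2 difference was 4.33, and it was 5.71 without E-OEX LE replicate 1 and 3.005 without E-OEX LE replicate 3.

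The comparison of glands between genotypes used no luminal library in its fit, and Hp was the gene of the 4 that it could test. Luminal libraries still decided which genes could be tested, since the tables list genes selected for a difference between GE and LE. Hp entered the E-OEX tables with its higher values in E-OEX GE, a group also compared here. The p-value below does not allow for that selection, so nothing is concluded from it. As a description of these libraries, E-OEX glands held more Hp than wild-type glands. The rescaled counts were 11099, 5753 and 4086 in E-OEX GE and 2695, 1880 and 2831 in WT GE, without overlap. The means were 6979 ± 3664 and 2469 ± 514 (SD, n = 3 each), a ratio of 2.83, and 18.6% of genes were higher without overlap. The log2 difference was 1.39 (SE 0.36, 95% interval 0.59 to 2.19, limma adjusted p = 0.0201). Of the 2851 genes tested there, 23.5% were called, 9.72% higher and 13.8% lower. The call was lost without WT GE replicate 1 (limma adjusted p = 0.0665), without WT GE replicate 2 (0.0763) and in 1 fit over all groups (0.457). The direction was the same in all 15 alternatives, of which the replicate block and the lack of a filter cannot move the difference.

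Of 6 stromal markers tested, 0 changed by limma, and Cd68, the 1 leukocyte marker tested, had a log2 difference of 0.14 (limma adjusted p = 0.796). Of 7 gland markers, 5 were lower in E-OEX GE, among them Lif, a cytokine needed for implantation (log2 difference -3.46, limma adjusted p = 0.000144). The epithelial keratin Krt19 was higher (log2 difference 2.04, limma adjusted p = 0.0005) and Cdh1 did not pass. The part of these shifts in the Hp value was not tested.

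Within E-OEX, the deposited scaled counts of Hp were 11627, 6483 and 5211 in GE and 2356, 254 and 47.5 in LE. The ratio of means was 8.77, and the groups did not overlap on this scale, unlike on that of the 15 libraries. No test is given, since E-OEX LE may have served in choosing the genes. That table too was selected for the difference, with 91.6% of its 4903 genes called, 61.5% higher and 30.1% lower in GE, and 60.5% higher without overlap. Stromal markers summed to 79280 to 94357 in E-OEX GE and 498 to 2728 in E-OEX LE, and their part was not tested.

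**Figure D2:**
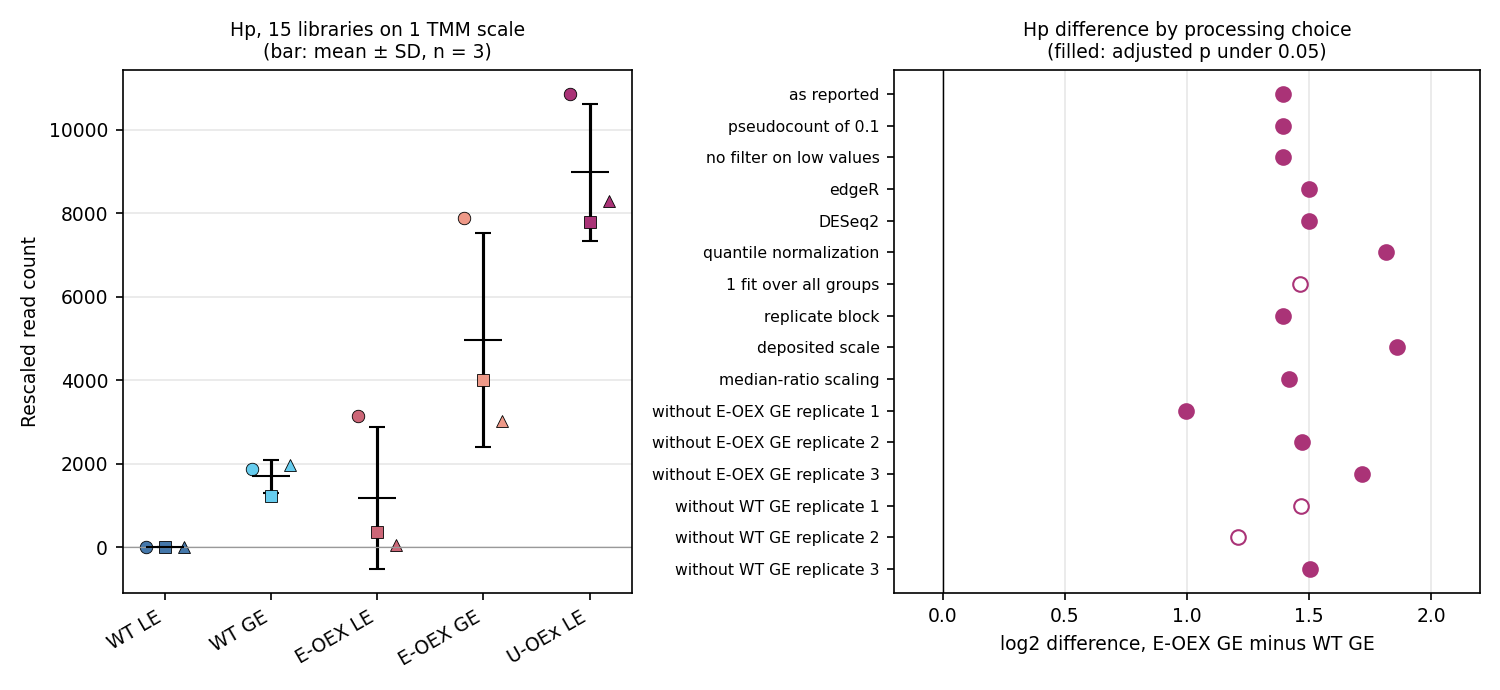
Left, Hp rescaled read counts (vertical axis) in the 15 libraries on 1 TMM scale, with the mean and SD of each group of 3; WT LE lies near 0 and E-OEX GE overlaps U-OEx LE. Right, the log2 difference of Hp between E-OEX GE and WT GE (horizontal axis) as reported, at 1.39, and under each alternative, where filled points passed the adjusted threshold of 0.05.

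Levels can be compared between the genes only per length of transcript. In U-OEx LE, as TPM, a length-corrected share of a library's transcripts, computed from the recovered reads and the GENCODE exon lengths, Olfm4 stood at 2348 ± 1200, Hp at 1024 ± 151, Dmbt1 at 829 ± 410 and Nos2 at 319 ± 157 (SD, n = 3 each). Olfm4 was above the other 3 genes in every library. Hp and Dmbt1 changed places, since Dmbt1 had 968, 1151 and 368 TPM and Hp had 1196, 915 and 961. Nos2 ranged from 138 to 421 TPM and was under the other 3 in libraries 1 and 2, while in library 3 it exceeded Dmbt1.

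Among the 27131 genes with a length, the means ranked 26 for Olfm4, 89 for Hp, 124 for Dmbt1 and 395 for Nos2. The highest secreted defence genes in the same libraries were Ltf, the iron-binding lactoferrin, at 7407 TPM and Lcn2, the siderophore-binding lipocalin 2, at 7080 TPM. S100a9, which is on the leukocyte list as well, came next at 3198 TPM. Pigr, which carries antibodies across epithelia, was at 2433 TPM, beside Olfm4. S100a8, also on both lists, was at 2029 TPM. In this order Hp fell between Cd14, a lipopolysaccharide co-receptor at 1100 TPM, and the membrane mucin Muc1 at 942 TPM.

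**Figure D3:**
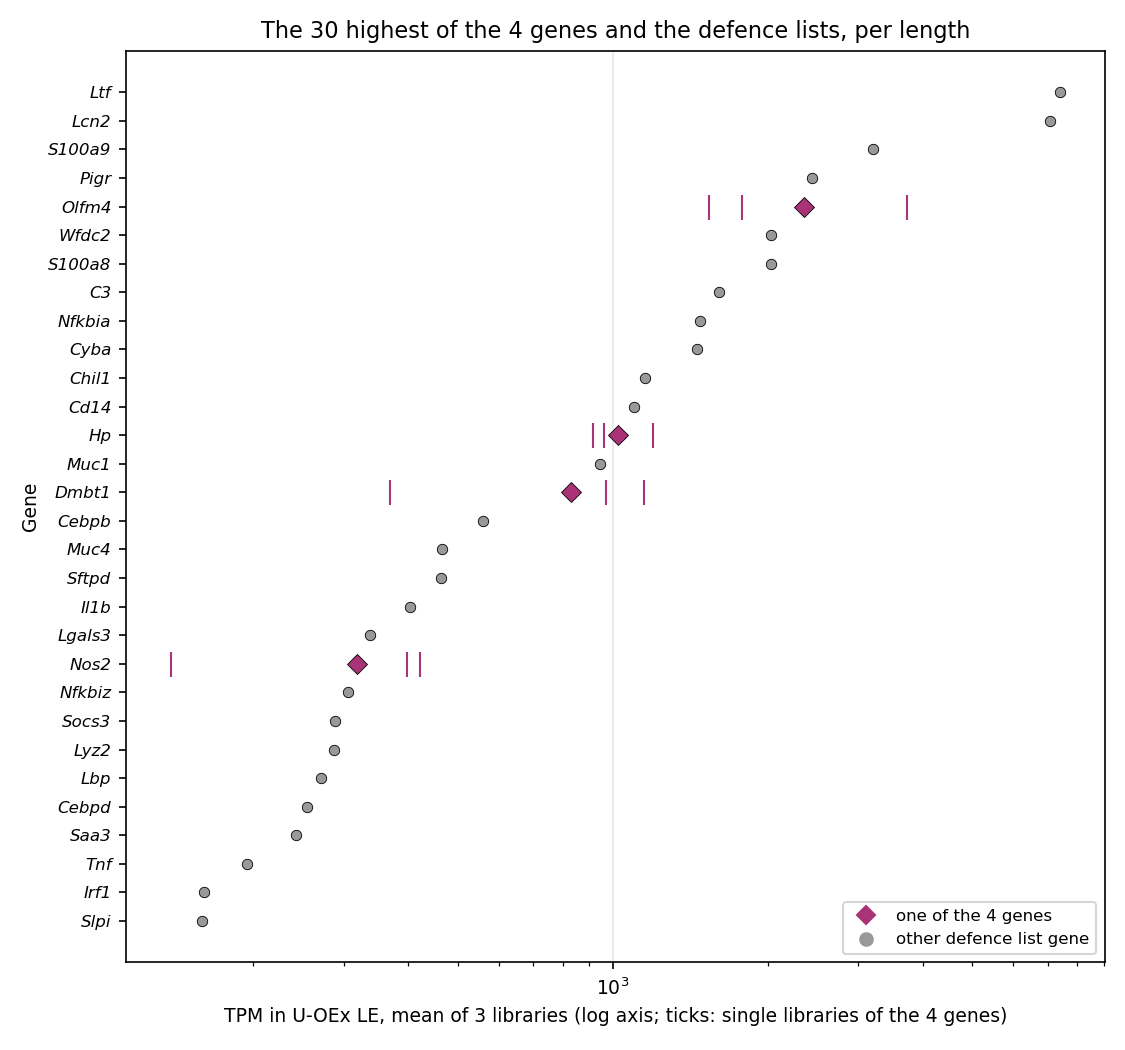
Mean TPM in U-OEx LE (horizontal axis, logarithmic) of the 30 most abundant genes among Olfm4, Dmbt1, Nos2, Hp and the defence lists, with ticks for the 3 libraries of those 4 genes. Olfm4, at 2348 TPM, is number 5 in this order and Nos2, at 319 TPM, lies beside the galectin Lgals3 at 337 TPM.

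The U-OEx LE libraries differed from one another in blood cell transcripts. All 16 leukocyte markers listed there were detected in at least 1 library, and their scaled counts summed to 28301 in replicate 1, 6695 in replicate 2 and 46360 in replicate 3. The neutrophil protein S100a9 stood at 7533, 617 and 13079, the neutrophil growth factor receptor Csf3r at 6327, 2041 and 11256, and the pan-leukocyte Ptprc at 1570, 441 and 2705. Ly6g was low, at 39.5, 4.44 and 97.0, and Ngp, a neutrophil granule protein, was at 79.0, 0 and 73.0.

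The 4 genes did not share that order. Nos2 was lowest in replicate 2, where the leukocyte markers were lowest, and so were Olfm4 and Hp. All 3 were highest in replicate 1, while the leukocyte sum was highest in replicate 3. Dmbt1 had its highest value in replicate 2 and its lowest in replicate 3. In replicate 2 the scaled counts were 17806 for Olfm4, 31768 for Dmbt1, 2382 for Nos2 and 5748 for Hp. Leukocyte markers were present there too, with S100a9 at 617, Csf3r at 2041 and a sum of 6695. The part of leukocytes in these levels was not tested.

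The U-OEx LE libraries also held epithelial RNA. All 8 epithelial markers were detected, with sums of 58024 to 79257, and stromal markers summed to 682 to 2672. Of 4 epithelial markers tested, 3 were lower than in WT LE, 0 higher and 1 not called. The largest fall was that of Cldn3 (log2 difference -3.02, limma adjusted p = 1.47e-05). Of the luminal markers, Wnt7a was at 1344 to 2811, but 4 of 5 tested were lower than in WT LE, the largest fall being that of Calb1 (log2 difference -7.03, limma adjusted p = 8.11e-06). Of 7 gland markers tested, 4 were higher, led by the gland transcription factor Foxa2 (log2 difference 5.66, limma adjusted p = 6.45e-05), while the gland-secreted Prss29, Ttr and Spink1 were at 0 reads.

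**Figure D4:**
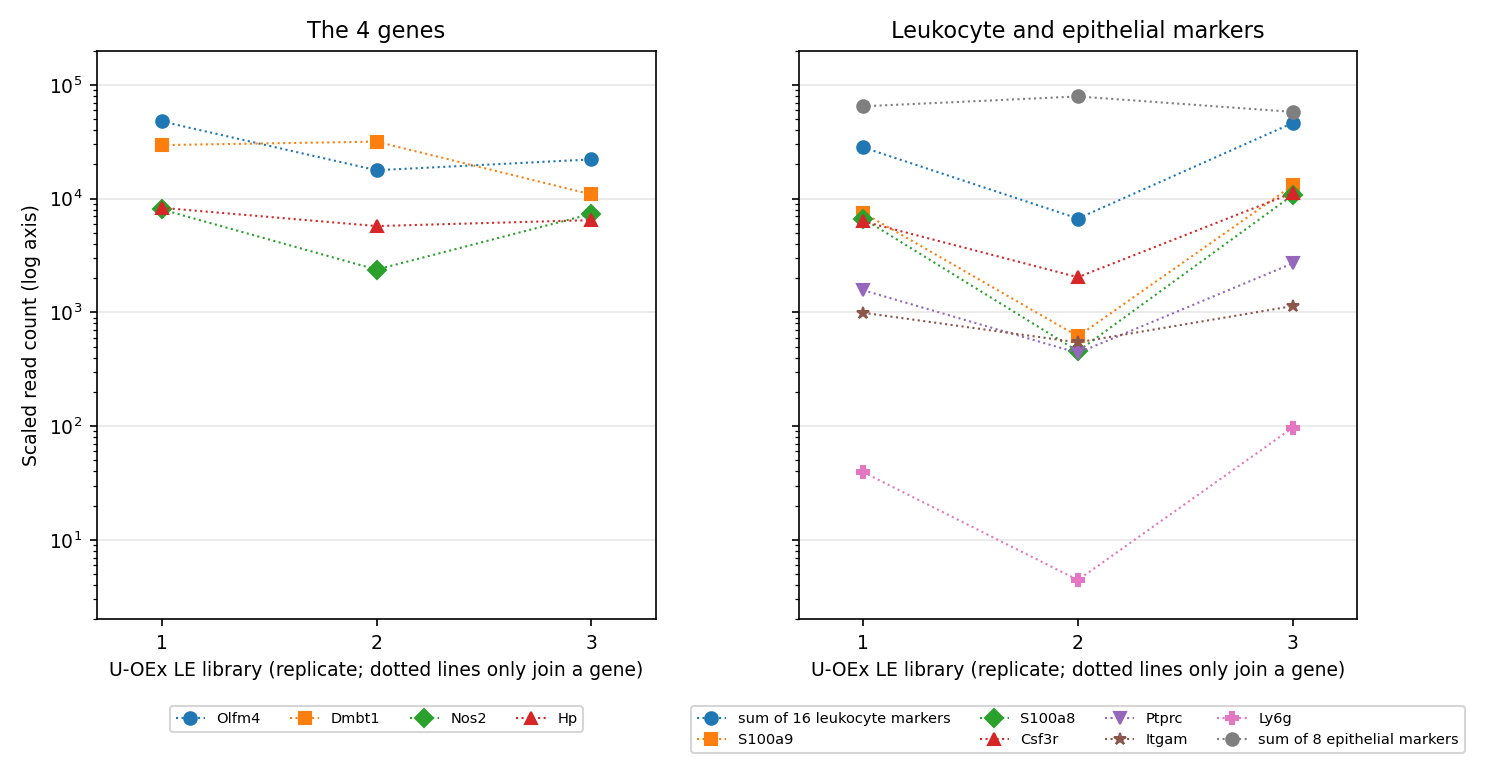
Scaled read counts (vertical axis, logarithmic) in the 3 U-OEx LE libraries (horizontal axis), at left for Olfm4, Dmbt1, Nos2 and Hp and at right for leukocyte markers, their sum and the sum of 8 epithelial markers. The leukocyte sum runs from 6695 in replicate 2 to 46360 in replicate 3, while Dmbt1 is highest in replicate 2, at 31768.

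Other secreted defence proteins of the list were mostly higher in U-OEx LE than in WT LE. This list and the other 3 defence lists below were chosen with earlier results of these data known. Their counts are therefore descriptions and not independent tests. Of 35 in the list, 15 were listed in both tables and tested, and 12 were higher, 2 lower and 1 not called. Over all 5949 genes tested, 29.1% were higher and 27.8% lower, with a median log2 difference of 0.09 against 3.303 in the list. Ltf went from 1222 ± 1285 to 105950 ± 37151 (log2 difference 6.89, SE 0.66, limma adjusted p = 8.51e-05). Muc4, a membrane mucin, went from 515 ± 255 to 22955 ± 5914 (log2 difference 5.61, SE 0.44, limma adjusted p = 3.07e-05). Both values are rescaled counts with SD and n = 3.

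The C-type lectins Reg3g and Reg3b, which kill or bind gut bacteria, and the trefoil peptide Tff2 were called higher from almost nothing. Reg3g gave 2 reads in WT LE and a rescaled mean of 1013 ± 741 in U-OEx LE. Reg3b and Tff2 gave 0 reads in WT LE and means of 37.9 ± 29.1 and 71.5 ± 6.0 in U-OEx LE. Lyz1, the lysozyme of Paneth cells, moved the other way, from 98.5 ± 31.6 to 1.60 ± 2.02 (log2 difference -5.51, limma adjusted p = 0.000258). Wfdc2 was the other gene called lower, at 23273 ± 2498 in WT LE and 9560 ± 1685 in U-OEx LE. Of the called genes, Lyz2 is also on the leukocyte list, and the part of leukocytes in these changes was not tested.

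Around Nos2, the list of nitric oxide and oxidant enzymes had 8 genes tested, of which 4 were higher, 0 lower and 4 not called by limma. Arg1, an arginase that uses the substrate of Nos2, was higher by 5.65 on the log2 scale (SE 0.36, limma adjusted p = 1.43e-05), at 19.9 ± 5.86 in WT LE and 1052 ± 329 in U-OEx LE. Its scaled counts of 888, 834 and 1419 in the U-OEx libraries had the order of the leukocyte sum. The part of leukocytes in these enzymes was not tested. Ass1, which remakes arginine from citrulline, was higher by 4.39 (SE 0.43, limma adjusted p = 8.83e-05), with scaled counts of 154, 155 and 163 in the 3 U-OEx libraries. Duox2, an epithelial hydrogen peroxide generator, was higher by 5.53 (SE 0.68, limma adjusted p = 0.000273). Across the U-OEx libraries it had another order, with scaled counts of 68.0, 286 and 133. Its maturation factor Duoxa2 gave 1 read in WT LE and 70 in U-OEx LE. The constitutive synthase Nos3, of blood vessel walls, did not pass, at 7.38 ± 5.70 and 2.14 ± 2.36.

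Among 13 genes of microbial sensing and of NF-kB or STAT3 signalling tested, 7 were higher, 1 lower and 5 not called by limma. The cytokines Il1b and Tnf led. Il1b was at 3.32 ± 2.25 in WT LE and 3272 ± 2220 in U-OEx LE (log2 difference 9.41, SE 0.69, limma adjusted p = 2.44e-05), and Tnf at 3.43 ± 3.08 and 1349 ± 572 (log2 difference 8.36, SE 0.59, limma adjusted p = 2.01e-05). Both followed the leukocyte markers across the U-OEx libraries in being lowest in replicate 2, at scaled counts of 981 and 699. Their share from leukocytes was not tested.

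The receptors for bacterial products Tlr5 and Tlr2 were higher by 4.27 (SE 0.56, limma adjusted p = 0.000408) and 3.46 (SE 0.46, limma adjusted p = 0.000408). Il17ra, the interleukin 17 receptor, was higher by 2.27 (SE 0.46, limma adjusted p = 0.00365). Myd88, the adaptor of most Toll-like receptors, was lower, from 13451 ± 2432 to 860 ± 291 (log2 difference -4.01, SE 0.31, limma adjusted p = 2.81e-05).

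Of 8 relatives and binding partners of the 4 genes tested, 1 was higher, 2 lower and 5 not called by limma. Hpx, the haem-binding counterpart of haptoglobin, went from 5.78 ± 6.24 to 18.8 ± 1.78 (log2 difference 1.97, limma adjusted p = 0.0449), far below Hp. Olfm2, a relative of Olfm4, was lower by 1.47 on the log2 scale from 70.7 ± 33.1 to 22.5 ± 1.72 (limma adjusted p = 0.0334). Grn, the growth factor precursor progranulin, fell from 24271 ± 4393 to 4575 ± 177 (log2 difference -2.39, limma adjusted p = 4.97e-05). The stem cell marker Lgr5, often named with Olfm4 in the gut, was at 724 ± 790 and 319 ± 41.4 and did not pass. Cd163, the macrophage receptor for haptoglobin bound to haemoglobin, was at 0 reads in WT LE and 3 in U-OEx LE.

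**Figure D5:**
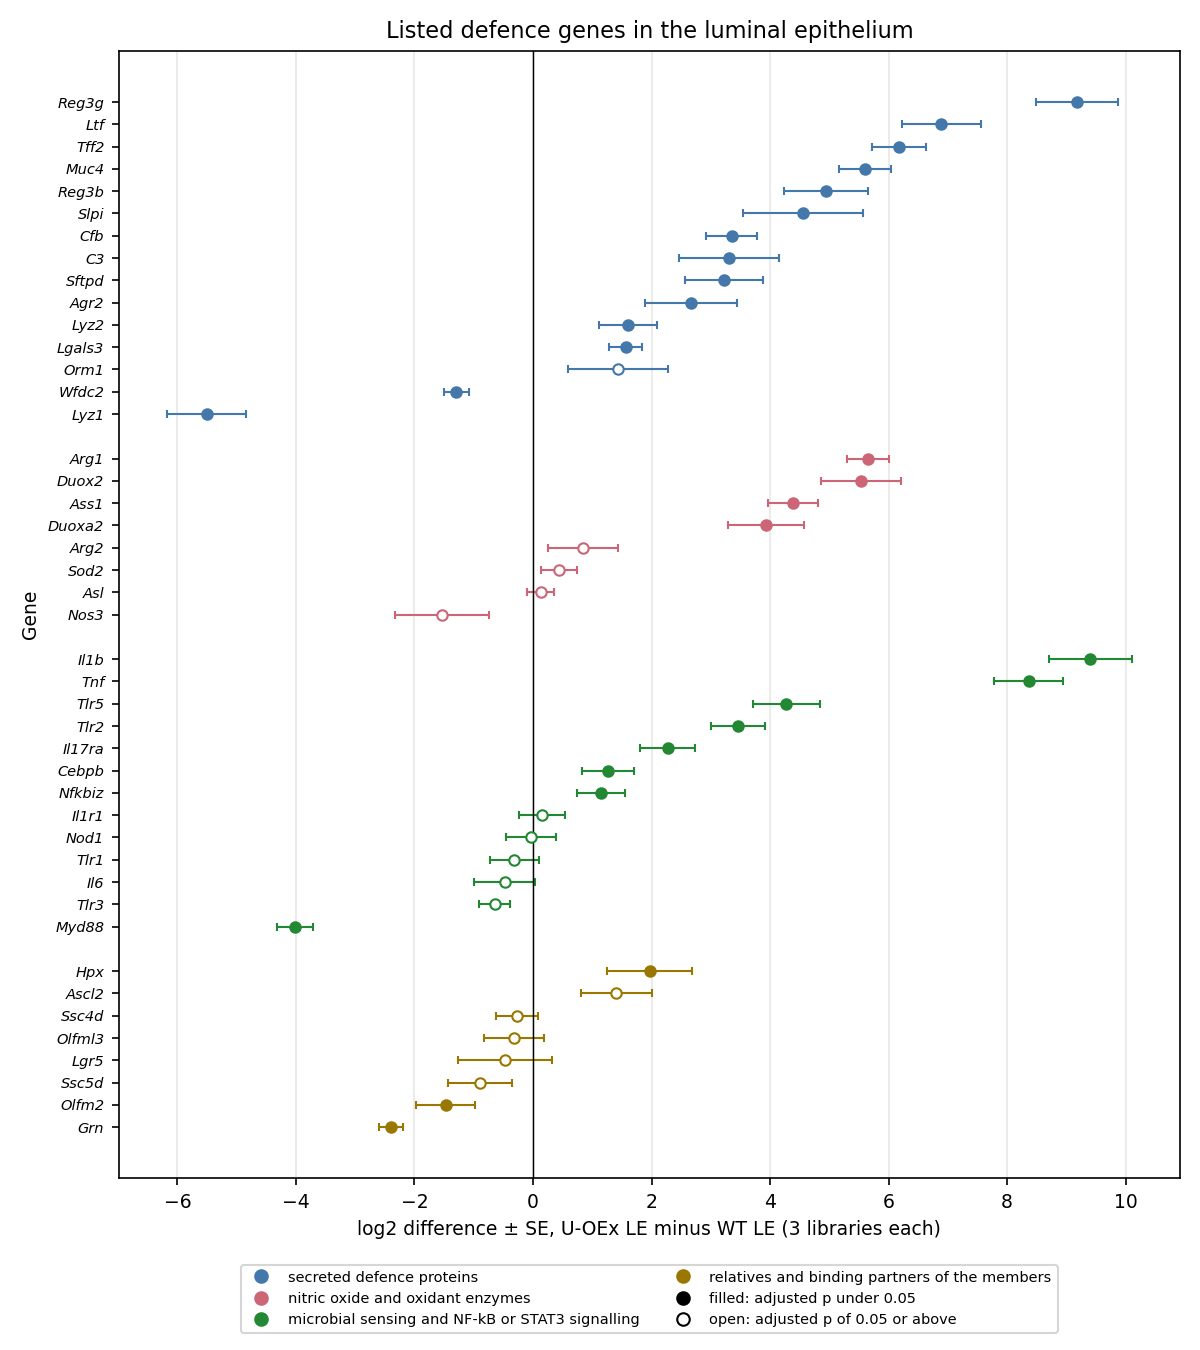
Log2 difference between U-OEx LE and WT LE (horizontal axis, with SE, 3 libraries each) for the tested genes of the 4 defence lists (vertical axis), where filled points passed the limma threshold. In the secreted list 12 of 15 genes were higher, and in the list of relatives 1 of 8.

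Over the 4 defence lists together, 24 genes were higher and 5 lower in U-OEx LE than in WT LE, counting each list member once. Since the lists were chosen with earlier results of these data known, these counts are a description. Among all 5949 genes tested, 29.1% were higher and 27.8% lower. The fewest higher with a library left out were 19, without U-OEx LE replicate 1. Without U-OEx LE replicate 2, the library lowest in leukocyte markers, 22 were higher and 4 lower. Without replicate 3, the library highest in them, 20 were higher and 4 lower. Of the 5 leukocyte markers that the wild-type tables list, Adgre1, Lyz2 and Retnlg were higher in U-OEx LE, and Cd68 and Ly6g did not pass.

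In the E-OEX glands, 4 defence list genes were higher and 1 lower than in WT GE by limma. Of all 2851 genes tested there, 9.72% were higher and 13.8% lower. Of 9 secreted genes tested 3 were higher and 1 lower, of 5 sensing genes 1 was higher, and of 9 in the other lists 0 passed. The antiprotease-like Wfdc2 went from 1370 ± 161 to 4991 ± 1416 (log2 difference 1.83, SE 0.27, limma adjusted p = 0.00117). Cfb, complement factor B, went from 2.70 ± 2.47 to 22.3 ± 17.9 (log2 difference 2.74, limma adjusted p = 0.0308), and Lgals3 was the third secreted gene that was higher (1.26, limma adjusted p = 0.0453). Cebpb, a transcription factor of acute-phase genes including Hp in liver, was higher by 1.19 (SE 0.31, limma adjusted p = 0.0212). Agr2, a protein disulfide isomerase of mucous cells, was lower by 2.28 from 156 ± 38.6 to 33.0 ± 15.6 (limma adjusted p = 0.00388). Wild-type mean scaled counts in LE and GE were 22833 and 1135 for Wfdc2, 36.6 and 2.25 for Cfb and 894 and 78.9 for Lgals3. They were 1517 and 686 for Cebpb and 8.79 and 129 for Agr2. The part of luminal RNA in these calls was not tested. Leaving out single libraries brought the higher count down to 1, without E-OEX GE replicate 2 or without WT GE replicate 3, and to 2 without WT GE replicate 1 or 2.

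In the E-OEX lumen, 2 defence list genes were higher and 1 lower than in WT LE, where 5.12% of 2600 genes were higher and 5.54% lower. Ltf was higher by 4.58 (SE 0.69, limma adjusted p = 0.00477), Muc4 by 3.24 (SE 0.68, limma adjusted p = 0.0185), and Grn was lower, with a log2 difference of -1.51 (limma adjusted p = 0.048). Without E-OEX LE replicate 1, the library with the most Hp, 0 were higher and 0 lower. Without E-OEX LE replicate 2, WT LE replicate 2 or WT LE replicate 3, 1 was higher and 0 lower. In all, 10.7% of genes were called there.

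Between the 2 mutant lumens, 9 defence list genes were higher and 2 lower in U-OEx LE than in E-OEX LE, where 15% of 4275 genes were called, 6.97% higher and 8.05% lower. Of the secreted genes, Lcn2 went from 14199 ± 19970 to 78862 ± 27053 (log2 difference 3.63, SE 0.97, limma adjusted p = 0.0392). Il6ra, an interleukin 6 receptor subunit, was higher by 2.80 (limma adjusted p = 0.0236) and Cebpb by 1.70 (limma adjusted p = 0.0371). Of 3 leukocyte markers tested, Itgam was higher as well, at 101 ± 58.1 and 900 ± 294 (log2 difference 3.23, limma adjusted p = 0.00638), and Cd68 and Ly6g did not pass. The part of leukocytes in this comparison was not tested. The higher count rested on single libraries. It was 0 without U-OEx LE replicate 1, without E-OEX LE replicate 2 or without E-OEX LE replicate 3, 1 without U-OEx LE replicate 3 and 4 without U-OEx LE replicate 2.

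Against WT GE, 33.5% of 6028 genes were higher and 37.5% lower in U-OEx LE, 71% in all. Of the secreted list, 12 of 15 genes were higher and 2 lower, with a median log2 difference of 4.46 against -0.12 over all genes. Of the nitric oxide and oxidant list 4 of 9 were higher and 4 lower, and of the sensing list 10 of 13 were higher and 0 lower by limma. All 6 stromal and all 8 gland markers tested were lower in U-OEx LE than in WT GE. Of 5 leukocyte markers 2 were higher and 0 lower, namely Cd68 (log2 difference 2.77, limma adjusted p = 3.83e-05) and Ly6g, at 0 reads in WT GE and 149 in U-OEx LE. The part of all these cells in the counts was not tested.

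The genes with the most similar profile over the 9 WT and U-OEx libraries were found among 6203 genes by Pearson's r of log2 rescaled counts, as a description. These libraries fall into 3 groups, so that any gene with the same order of groups has a high r. For Olfm4 they were Slc16a7 (r = 0.998), Lrp4, Vps37b, Haspin and Gm45145, the last at 0.995. For Dmbt1 they were Brca1 (0.992), Arg1 (0.989), Bub1, Gtse1 and Shcbp1 (0.986). For Nos2 they were Parp8 (0.995), the mucin Muc20, Sirpa, Chad and Il1b (0.992). For Hp they were Tmem97 (0.995), Padi1, Fam167a, the transferrin receptor gene Tfrc (0.994) and Pgap1.

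Among the 4 genes themselves, Dmbt1 and Nos2 were the closest pair (r = 0.973 over 9 libraries), and Dmbt1 and Hp the most distant (0.716). Olfm4 lay between, at 0.946 with Hp, 0.936 with Nos2 and 0.897 with Dmbt1. These r values include the WT LE and U-OEx LE libraries on which the genes were picked, so nothing is read from their height. Within U-OEx LE, replicate 2 held the highest scaled count of Dmbt1, at 31768, and the lowest of Nos2, at 2382. Over the 12 WT and E-OEX libraries, the profiles most like that of Hp among 2932 genes were those of Foxq1 (0.982), Fzd7 (0.978), Sema3g (0.973), Sh3bp5 (0.969) and an unannotated transcript (0.962).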

How the data were processed

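RNA was extracted with a Qiagen RNeasy kit and libraries were made with an NEBNext Ultra kit, per the labels' protocols. The GRCm38 (mm10) build comes from the submitters' processing notes, while the aligner, counter and scaling are not given in the sources used here. The authors' deposited values were handled as a signal: each is a read count divided by 1 factor per library, read from the values, of which 100% lay within 0.01 of a whole multiple of 1 value per library. Reads were recovered by that division.

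The genes and lists were chosen with earlier results of these data known. Groups came from titles. For the 4 genes the planned tests between GE and LE within a genotype are not used, because luminal values entered the choice of genes. The test was limma 3.58.1 (R 4.3.3, mean-variance trend, two-sided) on log2(value + 1) for genes with a mean of at least 1, with Benjamini-Hochberg adjustment over all genes of a comparison and a threshold of 0.05. Within a genotype deposited values were used; between genotypes, recovered reads of shared genes (2933 for WT and E-OEX, 6204 for WT and U-OEx, 4676 for E-OEX and U-OEx) were rescaled with TMM (edgeR 4.0.16), a scaling that centres the bulk of the shared genes. Fold changes on this scale understate low genes. From each list the 6 largest changes called in U-OEx LE against WT LE, and the 3 largest in the other comparisons between genotypes, could be named, besides all cell-type markers and, after their values were seen, Lgals3 in E-OEX GE and other list genes given as levels or as not called. Replicate pairs differed beyond counting noise (chi-square per degree of freedom 15.1 to 154). Scripts were tested on simulated data. Alternatives included edgeR and DESeq2 1.42.0 on recovered reads.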

Additional observations from a re-analysis of the deposited data

How the results depend on the processing

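No log2 difference of the 4 genes changed sign under the alternatives run, but counts and the share of higher calls did change sides, as given below. The Hp difference between E-OEX GE and WT GE lay between 0.996 and 1.86 on the log2 scale and passed in 12 of 15 alternatives (adjusted p 0.00135 to 0.457). It did not pass in 1 fit over all groups (1.46), and single libraries left out gave 0.996 to 1.72. The Dmbt1 difference between WT GE and WT LE was 3.36 with a pseudocount of 0.1 and 0.87 with quantile normalization, and 1.62 to 2.84 with single libraries left out. For U-OEx LE against WT LE, a pseudocount of 0.1 gave Olfm4 18.03, Dmbt1 15.01, Nos2 14.5 and Hp 12.9 on the log2 scale. There edgeR gave Olfm4 17.9 and Nos2 13.6, and DESeq2 gave Olfm4 17.2, Dmbt1 14.4 and Nos2 13.9. These values depend on how near-zero wild-type reads enter. Hp in U-OEx LE against WT GE was 2.42 in 1 fit over all groups.

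Counts of defence list genes moved as follows. In E-OEX GE against WT GE, 4 higher became 2 with no filter or 1 fit over all groups, 7 on the deposited scale and 1 to 3 with a library left out. There 1 lower became 0 in 1 fit over all groups and 1 to 2 with a library left out. In E-OEX GE against E-OEX LE, quantile normalization gave 6 higher, and leaving out a library gave 10 to 17 lower. In E-OEX LE against WT LE, no filter gave 0 higher, and a library left out 0 to 2 higher. Lower genes there numbered 0 with a pseudocount of 0.1, no filter, edgeR, quantile normalization or the deposited scale, 2 in 1 fit over all groups or with median-ratio scaling (an alternative chosen after seeing the data), and 0 to 2 with a library left out. In U-OEx LE against E-OEX LE, 9 higher and 2 lower became 0 and 1 with no filter, without E-OEX LE replicate 2 or without E-OEX LE replicate 3. Higher genes numbered 5 with a pseudocount of 0.1 or edgeR, 0 with no filter and 0 to 12 with a library left out. Lower genes there numbered 1 with a pseudocount of 0.1, no filter, edgeR, quantile normalization, the replicate block or the deposited scale, 4 with DESeq2 and 0 to 2 with a library left out.

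Same-numbered libraries did not pair: correlations of their deviations ran from -0.28 to 0.19 over the 7 comparisons. With the replicate block, genes called in E-OEX GE against WT GE went from 670 to 718, and the limma adjusted p of Hp was 0.00769. Its log2 difference of 1.39 cannot change with the block in this balanced design.

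The scale mattered for totals. On the deposited scale 71.6% of calls in E-OEX GE against WT GE were higher, against 41.3% as reported, and the median of all genes moved from 0.05 to 0.50. In E-OEX LE against WT LE it gave 58.6% higher, and no filter 58.1%, against 48%. Quantile normalization gave 46.2% higher within E-OEX, against 67.2%, and within the wild type 49.8% against 58.3%. All genes called in E-OEX GE against WT GE numbered 326 in 1 fit over all groups and 348 without WT GE replicate 1. In E-OEX LE against WT LE 277 became 105 with no filter, 453 with DESeq2, 634 in 1 fit over all groups and 59 without E-OEX LE replicate 1. In U-OEx LE against E-OEX LE 642 became 286 with no filter, 978 in 1 fit over all groups and 51 without U-OEx LE replicate 1. The causes were not tested.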
